A study of Arabidopsis with 8 samples.

Results

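The 10 genes described here carry sodium and potassium across the membranes of plant cells, or switch that transport on. They are SOS1, SOS2, SOS3, HKT1, NHX1, NHX2, HAK5, AKT1, SKOR and KAT1, chosen by name and locus with earlier results of these data known. All 10 were found among the 25404 Arabidopsis thaliana genes listed in at least 1 library. RNA was sequenced from roots and from the shoot part of 5-day-old seedlings in 4 groups of 2 libraries: OE-SAUR41 roots, Col-0 roots, OE-SAUR41 shoots and Col-0 shoots. Col-0 is the wild type, and OE-SAUR41 overexpresses SAUR41, a gene of the SMALL AUXIN UP RNA family. The labels name neither the promoter that drives the transgene, nor the parent of the line, nor the number of lines, and they name no salt or potassium treatment. Whether replicates are separate cultures is not stated, so the p-values cover only the variation among these 8 libraries, part of which may be technical. Values are FPKM, fragment counts scaled by transcript length and by the total mapped in each library, which can be compared between genes as levels per length.

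The SOS (SALT OVERLY SENSITIVE) pathway couples a calcium signal to sodium export. SOS3 is a calcium sensor that binds and activates the kinase SOS2, and SOS2 in turn activates SOS1, a sodium/proton antiporter of the plasma membrane. HKT1 takes sodium back out of the xylem sap in the stele, and NHX1 and NHX2 move potassium or sodium into the vacuole in exchange for protons. For potassium, AKT1 and HAK5 are the inward channel and the high-affinity transporter of the root surface, SKOR is the outward channel that loads potassium into the xylem, and KAT1 is an inward channel known mainly from guard cells.

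SAUR41 itself was at 7996 and 4670 FPKM in OE-SAUR41 roots, against 4.64 and 7.46 FPKM in Col-0 roots. In shoots it was at 10675 and 10248 FPKM in OE-SAUR41, against 4.93 and 8.29 FPKM in Col-0, so each library carried the SAUR41 level of its label. Summed markers fitted the tissues too: the 4 mesophyll markers (RBCS1A, LHCB2.1, PSAD1, CA1) summed to 51.0 to 81.5 FPKM in the 4 root libraries and to 17113 to 32606 FPKM in the 4 shoot libraries. The 4 root hair markers (COBL9, EXPA7, RHD6, RSL4) summed to 41.4 to 51.1 FPKM in roots and to at most 0.314 FPKM in shoots, where RSL4 was unlisted in every library. The 2 Col-0 shoot libraries stood apart from each other. They correlated at Pearson's r = 0.930 across genes, against 0.981 to 0.986 for the other replicate pairs, and 29.1% of genes differed at least 2-fold between them, against 1.27 to 2.04%. For the 10 genes, values that rest on Col-0 shoots are therefore given with and without these libraries where leaving one out ends a call, turns a direction or moves a called value by over 1.5 times. No counts are given, so the depth of each library is unknown. Unlisted genes were set to 0.

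Most of the 10 genes, like most genes tested, were higher in roots than in shoots in these seedlings. SOS1, SOS2, SOS3, HKT1, NHX1, HAK5, AKT1 and SKOR had higher levels in roots than in shoots in both genotypes, KAT1 was a shoot gene, and NHX2 was called different between organs in neither genotype. In OE-SAUR41, 8 of the 10 genes were called higher in roots and 0 lower (limma on log2(FPKM + 1), Benjamini-Hochberg adjusted p under 0.05 over the 19863 genes tested). The background was wide, since 66% of all tested genes were called higher and 11.8% lower in OE-SAUR41 roots. In Col-0, 8 of the 10 were called higher in roots and 1 lower, against a background of 52.7% higher and 13.2% lower. In OE-SAUR41, 8 of the 10 had both root libraries above both shoot libraries and 1 had both below, where 76.5% and 16.4% of all genes did so. In Col-0 these counts were 8 and 2, against 67.5% and 16.4% of all genes. The 10 genes thus followed the direction that most genes took, and their sizes are set beside the all-gene median. The median root minus shoot difference of the 10 genes was 2.21 on the log2 scale in OE-SAUR41, against 1.22 for all tested genes. Without HAK5 and SKOR, which were unlisted in both OE-SAUR41 shoot libraries and so have no defined fold, the median of the other 8 was 1.82. In Col-0 it was 1.58 for the 10 genes, against 0.91 for all genes. Without Col-0 shoot replicate 1 the Col-0 background was 13633 genes called higher and 2702 lower, with an all-gene median of 1.21, and 9 of the 10 were called. Without Col-0 shoot replicate 2 it was 9639 higher and 3346 lower, with a median of 0.60, and 7 of the 10 were called higher and 2 lower. With quantile normalization the all-gene medians shrank to 0.21 in OE-SAUR41 and 0.20 in Col-0, and all-gene calls split into 6464 higher and 4545 lower in OE-SAUR41, against 13100 and 2352 without it. In Col-0 that split was 5650 and 4332, against 10470 and 2624 without it. Relative to the median of all genes, the 10 genes ran from -2.66 (KAT1) to 3.35 (AKT1) in OE-SAUR41 and from -2.67 (KAT1) to 3.51 (AKT1) in Col-0. Nearest above that median in OE-SAUR41 were SOS2 (0.37), NHX1 (0.50) and HKT1 (0.72). In Col-0 these genes were at 0.44, 0.36 and 0.20. All these values are on log2(FPKM + 1), where the added 1 shrinks the differences of low genes, so their order is not one of FPKM ratios. SOS2 averaged 3.30 FPKM in OE-SAUR41 roots and 0.441 FPKM in OE-SAUR41 shoots, against 50.2 and 14.6 FPKM for NHX1. KAT1 was near 0 in roots, so the size of its difference depends on the added 1. In bulk tissue, fewer cells of a type and less RNA per cell cannot be told apart.

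**Figure D1:**
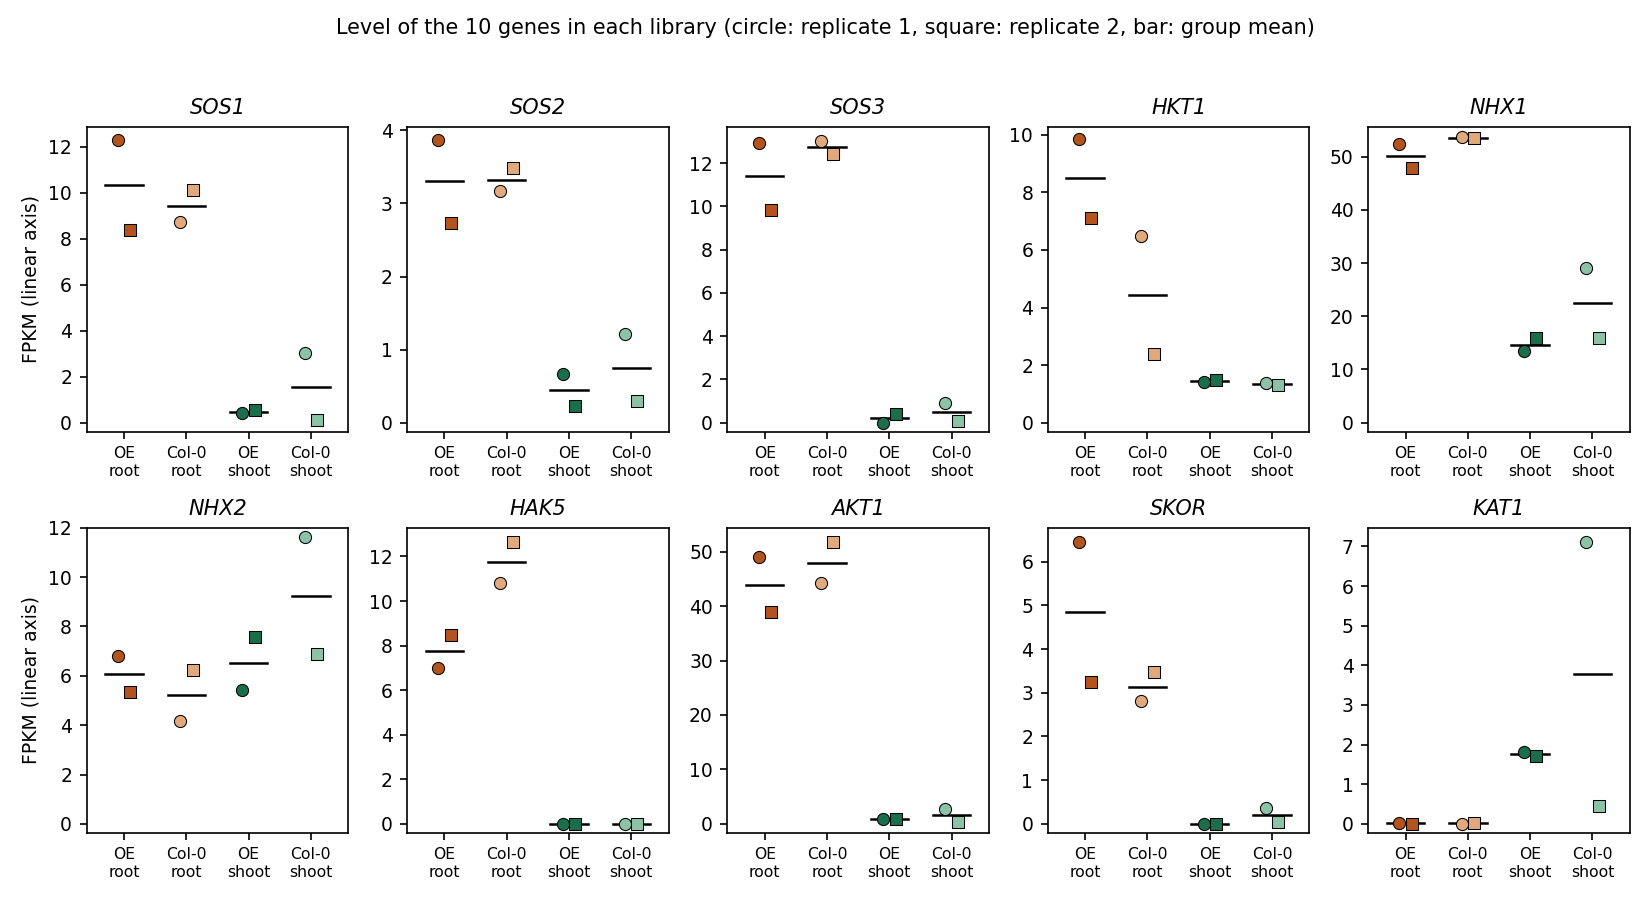
Level of each of the 10 genes in FPKM (linear axis, a separate scale for each gene) in OE-SAUR41 roots, Col-0 roots, OE-SAUR41 shoots and Col-0 shoots; circles are replicate 1, squares replicate 2 and bars the group mean. 8 genes are higher in all 4 root libraries than in any shoot library, KAT1 is near 0 in roots, and the circle of Col-0 shoots lies above its square for most genes.

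The 3 genes of the SOS pathway were all expressed in roots and low in shoots. SOS1 (AT2G01980, named NHX7 in the files, TAIR10 chromosome 2, 457010 to 463326) was at 12.3 and 8.37 FPKM in OE-SAUR41 roots, 8.73 and 10.1 FPKM in Col-0 roots, with 0.412 and 0.544 FPKM in OE-SAUR41 shoots, and 3.02 and 0.117 FPKM in Col-0 shoots. The antiporter's root and shoot ranges did not overlap in either genotype, while the genotypes overlapped within each organ. Its root minus shoot difference was 2.92 ± 0.55 (log2, SE) in OE-SAUR41, with an adjusted p of 0.00252 from limma, and 2.30 ± 0.55 in Col-0, with an adjusted p of 0.0092. SOS1 in Col-0 fell out of the calls without Col-0 root replicate 2 (2.20, limma adjusted p = 0.0592), and its difference was 3.22 without Col-0 shoot replicate 1 and 1.37 without Col-0 shoot replicate 2.

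SOS2 (AT5G35410, named CIPK24 in the files, chromosome 5, 13634454 to 13638297) was at 3.87 and 2.74 FPKM in OE-SAUR41 roots, 3.17 and 3.48 FPKM in Col-0 roots, with 0.659 and 0.223 FPKM in OE-SAUR41 shoots, and 1.21 and 0.291 FPKM in Col-0 shoots. The kinase was the lowest of the 3 in roots. Its root minus shoot difference was 1.58 ± 0.33 in OE-SAUR41 (limma adjusted p = 0.00359) and 1.35 ± 0.33 in Col-0 (limma adjusted p = 0.00911). Under quantile normalization these differences were 0.36 and 0.46 and neither was called (limma adjusted p = 0.229 and 0.145), and the Col-0 call was also lost without Col-0 root replicate 2 (1.30, adjusted p = 0.0542).

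SOS3 (AT5G24270, named CBL4 in the files, chromosome 5, 8238534 to 8243357), the calcium sensor, was at 12.9 and 9.82 FPKM in OE-SAUR41 roots and 13.0 and 12.4 FPKM in Col-0 roots. In shoots it was unlisted in 1 OE-SAUR41 library and at 0.408 FPKM in the other, against 0.908 and 0.0648 FPKM in Col-0. The lowest root library was thus at more than 10 times the highest shoot library. The root minus shoot difference was 3.37 ± 0.36 in OE-SAUR41 (limma adjusted p = 1.75e-04) and 3.27 ± 0.36 in Col-0 (limma adjusted p = 2.07e-04), and both calls held in every alternative run that tested the gene.

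HKT1 (AT4G10310, chromosome 4, 6391984 to 6395877), which retrieves sodium from the xylem, was at 9.86 and 7.12 FPKM in OE-SAUR41 roots, 6.47 and 2.40 FPKM in Col-0 roots, with 1.43 and 1.49 FPKM in OE-SAUR41 shoots, and 1.37 and 1.29 FPKM in Col-0 shoots. The shoot libraries were nearly equal, and the Col-0 root libraries were the most uneven pair of this gene. The root minus shoot difference was 1.93 ± 0.40 in OE-SAUR41 (limma adjusted p = 0.0035) and 1.11 ± 0.40 in Col-0 (limma adjusted p = 0.0392). OE-SAUR41 libraries do not enter the Col-0 difference itself, only the shared estimate of spread and the adjustment over genes. The Col-0 call was narrow and was lost in several fits that left out a library. Its adjusted p from limma was 0.255 without Col-0 root replicate 1 (difference 0.54), 0.0527 without Col-0 shoot replicate 2, 0.0606 and 0.0611 without OE-SAUR41 root replicate 1 or 2, and 0.0659 and 0.0658 without OE-SAUR41 shoot replicate 1 or 2, while without Col-0 root replicate 2 it was 0.0169 (difference 1.68). With quantile normalization the HKT1 difference was 0.60 in OE-SAUR41 and 0.15 in Col-0, and neither was called (limma adjusted p = 0.213 and 0.769).

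The vacuolar antiporters NHX1 and NHX2 were expressed in both organs, and their patterns differed. NHX1 (AT5G27150, chromosome 5, 9553438 to 9557513) had the highest level of the 10 genes: 52.4 and 48.0 FPKM in OE-SAUR41 roots, 53.7 and 53.5 FPKM in Col-0 roots, with 13.4 and 15.9 FPKM in OE-SAUR41 shoots, and 29.1 and 16.0 FPKM in Col-0 shoots. Root NHX1 was higher than shoot NHX1 by 1.71 ± 0.27 in OE-SAUR41 (log2, limma adjusted p = 0.00114) and by 1.27 ± 0.27 in Col-0 (limma adjusted p = 0.00547). NHX2 (AT3G05030, chromosome 3, 1393296 to 1397358) was at 6.81 and 5.36 FPKM in OE-SAUR41 roots, 4.18 and 6.25 FPKM in Col-0 roots, with 5.43 and 7.58 FPKM in OE-SAUR41 shoots, and 11.6 and 6.87 FPKM in Col-0 shoots. It was the only 1 of the 10 whose root and shoot ranges overlapped in OE-SAUR41, with a difference of -0.08 (95% interval -0.88 to 0.73, limma adjusted p = 0.848). In Col-0 the difference was -0.70 (95% interval -1.51 to 0.10, limma adjusted p = 0.103), and it was -0.36 without Col-0 shoot replicate 1 (adjusted p = 0.274) and -1.04 and called without replicate 2 (adjusted p = 0.0137). Both Col-0 root libraries lay below both Col-0 shoot libraries. Set against all genes, NHX2 lay below the median by 1.29 in OE-SAUR41 and 1.62 in Col-0, and under quantile normalization it was called lower in roots in both genotypes (-1.31 with adjusted p = 0.00232, and -1.57 with adjusted p = 8.84e-04).

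The potassium uptake genes AKT1 and HAK5 were expressed in roots and low or unlisted in shoots. AKT1 (AT2G26650), the inward channel, was at 49.0 and 38.9 FPKM in OE-SAUR41 roots, 44.2 and 51.8 FPKM in Col-0 roots, with 0.806 and 0.960 FPKM in OE-SAUR41 shoots, and 2.70 and 0.405 FPKM in Col-0 shoots. With NHX1 it was the most abundant of the 10 in roots. On the log2(FPKM + 1) scale AKT1 had the largest root minus shoot difference of the 10 genes. It was 4.57 ± 0.43 in OE-SAUR41 (limma adjusted p = 9.30e-05) and 4.42 ± 0.43 in Col-0 (limma adjusted p = 1.07e-04). The added 1 shrinks the differences of genes that are low in shoots, so this is not an order of FPKM ratios. In Col-0, HAK5 averaged 11.7 FPKM in roots and 0.0056 FPKM in shoots, against 48.0 and 1.55 FPKM for AKT1. In the files AKT1 has the same locus as its neighbour KCS11 (AT2G26640), from 11329870 to 11336607 on chromosome 2, so reads of the pair may not be separated and its values are uncertain. KCS11 was at 18.4 to 24.5 FPKM in the 4 root libraries and 9.86 to 18.5 FPKM in the 4 shoot libraries.

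HAK5 (AT4G13420, named POT5 in the files, chromosome 4, 7796850 to 7802251), the high-affinity potassium transporter, was at 7.01 and 8.49 FPKM in OE-SAUR41 roots and 10.8 and 12.7 FPKM in Col-0 roots. In shoots it was unlisted in both OE-SAUR41 libraries and in Col-0 replicate 1, and at 0.0112 FPKM in Col-0 replicate 2. HAK5 was the most strictly root-confined of the 10 by this count of unlisted libraries, so no fold is given. It was called higher in roots in OE-SAUR41 (limma adjusted p = 3.57e-05) and in Col-0 (limma adjusted p = 1.58e-05).

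SKOR (AT3G02850), the outward channel of the stele, was at 6.45 and 3.24 FPKM in OE-SAUR41 roots and 2.80 and 3.48 FPKM in Col-0 roots. It was unlisted in both OE-SAUR41 shoot libraries, against 0.357 and 0.0363 FPKM in Col-0 shoots. SKOR was called higher in roots in both genotypes, with limma adjusted p = 3.50e-04 in OE-SAUR41 and a difference of 1.80 ± 0.31 (adjusted p = 0.00192) in Col-0. The files give SKOR the same locus as AT3G02840, from 618409 to 623558 on chromosome 3, so its values are uncertain too. AT3G02840 was at 20.8 and 5.80 FPKM in OE-SAUR41 roots and 13.5 and 6.20 FPKM in Col-0 roots. In OE-SAUR41 roots the replicate with more of it had more SKOR, and in Col-0 roots the replicate with more of it had less SKOR.

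KAT1 (AT5G46240, chromosome 5, 18743566 to 18746730) ran the other way. The guard cell channel was at 0.0250 FPKM and unlisted in OE-SAUR41 roots, unlisted and at 0.0316 FPKM in Col-0 roots, at 1.82 and 1.70 FPKM in OE-SAUR41 shoots, and at 7.11 and 0.447 FPKM in Col-0 shoots. The Col-0 shoot libraries lay on either side of both OE-SAUR41 shoot libraries. KAT1 was lower in roots by 1.75 ± 0.66 on the log2(FPKM + 1) scale in Col-0 and narrowly called (limma adjusted p = 0.0477). Because KAT1 was at or near 0 in every root library, the sizes of its organ differences depend on the added 1. In OE-SAUR41 the root minus shoot difference was -1.45 ± 0.66 and not called (limma adjusted p = 0.0775), although its 4 libraries were more even. The fit took 1 spread for each gene from all 8 libraries. Without Col-0 shoot replicate 1 or 2 the OE-SAUR41 difference was called (adjusted p = 5.29e-05 and 7.03e-05), and the Col-0 difference was -0.51 (adjusted p = 0.0444) and -3.00 (adjusted p = 7.02e-06). Leaving out any of the other 6 libraries ended the Col-0 call, with adjusted p of 0.0788 and 0.0787 without OE-SAUR41 root replicate 1 or 2, 0.154 and 0.145 without Col-0 root replicate 1 or 2, and 0.0786 without either OE-SAUR41 shoot replicate. The 4 guard cell markers (MYB60, SLAC1, FAMA, HT1) summed to 4.96 and 4.12 FPKM in OE-SAUR41 shoots and to 18.9 and 6.44 FPKM in Col-0 shoots, with FAMA unlisted in all 4 root libraries, and their part in the KAT1 values was not tested.

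**Figure D2:**
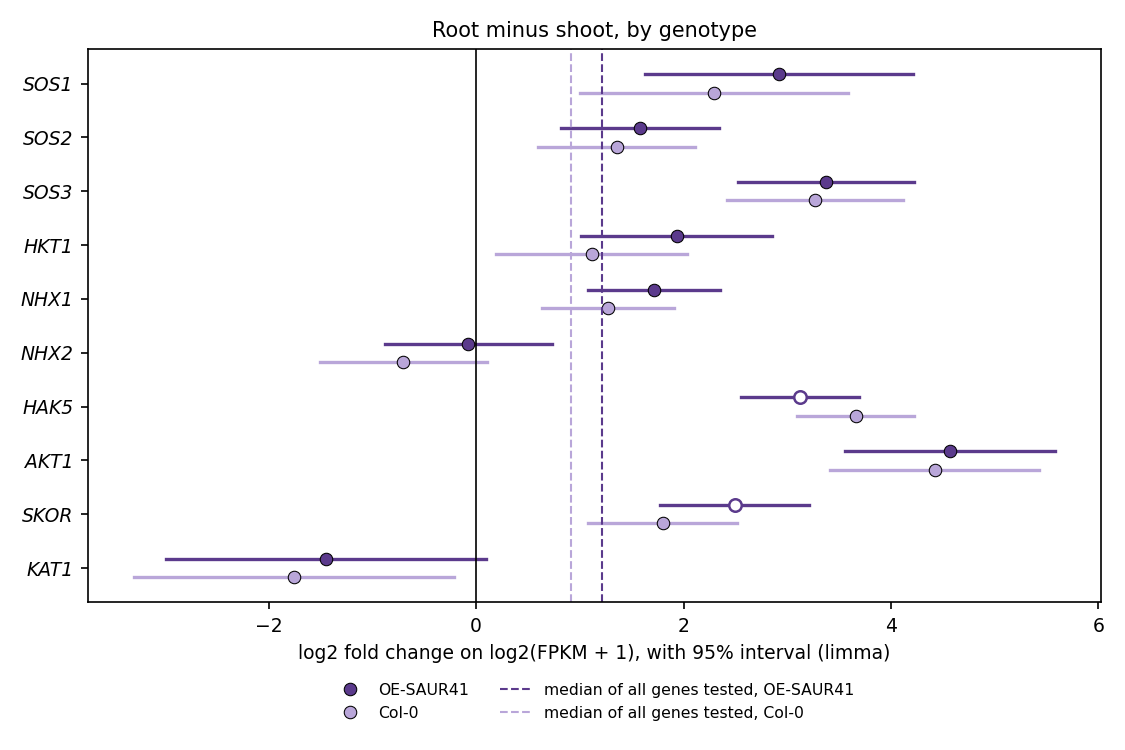
Root minus shoot difference of each gene (horizontal axis, log2 of FPKM + 1) with its 95% interval from limma, for OE-SAUR41 (dark) and Col-0 (light); dashed lines are the medians of all tested genes, 1.22 and 0.91. Open circles mark HAK5 and SKOR, unlisted in both OE-SAUR41 shoot libraries, whose position depends on the added 1. The position of KAT1, near 0 in roots, depends on it too. AKT1 lies farthest to the right, and NHX2 and KAT1 lie below 0.

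SAUR41 overexpression went with no called change in any of the 10 genes in roots. HKT1 was higher in both OE-SAUR41 root libraries than in either Col-0 root library, HAK5 and NHX1 were lower in both, and the other 7 genes overlapped between genotypes. In all, 0 of the 10 were called in either direction (limma, adjusted p = 1 for each), against a background of 0.00503% of genes called higher, which is SAUR41 alone, and 0% lower. None of the 10 had an unadjusted p under 0.05, a level reached by 340 of the 19863 genes. Groups without overlap were common: 11.5% of all genes had both OE-SAUR41 root libraries above both Col-0 ones, and 19.6% had both below. The median difference of the 10 genes was -0.01 and that of all genes -0.03.

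The widest root differences were those of HKT1 and HAK5. HKT1 averaged 8.49 ± 1.94 FPKM in OE-SAUR41 roots and 4.44 ± 2.88 FPKM in Col-0 roots (SD, n = 2 each), a log2 difference of 0.90 ± 0.40 (SE) with a 95% interval of -0.025 to 1.82. That value rested on Col-0 root replicate 2, the low library: without it the difference was 0.33, and without Col-0 root replicate 1 it was 1.47. HAK5 averaged 7.75 ± 1.04 FPKM in OE-SAUR41 roots and 11.7 ± 1.30 FPKM in Col-0 roots (SD, n = 2 each), a difference of -0.54 ± 0.24 with a 95% interval of -1.11 to 0.023, and it ran from -0.67 to -0.42 when each library was left out. SKOR differed by 0.45 (95% interval -0.27 to 1.17), and without OE-SAUR41 root replicate 1 by 0.04. For SOS1, SOS2, SOS3, NHX1, NHX2 and AKT1 the differences lay between -0.16 and 0.20, and the median SE of a gene in this contrast was 0.304. KAT1 was at or near 0 in every root library and is given no fold. The 4 xylem markers (XCP1, XCP2, VND7, PHO1) are set beside the HKT1 values. They summed to 347 and 288 FPKM in OE-SAUR41 roots and to 261 and 296 FPKM in Col-0 roots, which overlap. None was at 0, and 3 of the 4 were higher in both OE-SAUR41 libraries, as were 11.5% of all genes. PHO1, the most abundant, overlapped between genotypes, at 157 and 132 FPKM against 143 and 159 FPKM. The part of these markers in the HKT1 values was not tested. The 2 phloem markers (SUC2, APL) summed to 34.6 and 32.4 FPKM in OE-SAUR41 roots and to 29.9 and 28.4 FPKM in Col-0 roots. SUC2 alone was higher in OE-SAUR41 roots, at 20.7 and 21.5 FPKM against 18.1 and 14.4 FPKM. APL overlapped between genotypes, at 13.9 and 10.9 FPKM against 11.8 and 14.0 FPKM. The 4 root hair markers summed to 41.4 and 44.9 FPKM in OE-SAUR41 roots and to 51.1 and 43.8 FPKM in Col-0 roots.

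In shoots, too, no gene of the 10 was called between genotypes. 9 of the 10 fitted differences were below 0, but so was the median of all genes: -0.27 for the 10 and -0.32 for all. The 9 include HAK5 at -0.0081, which was at or near 0 FPKM in every shoot library. Without HAK5 and SKOR, unlisted in both OE-SAUR41 shoot libraries, the median of the other 8 was -0.30. With limma 0 of the 10 were called, against a background of 0.0101% of genes called higher and 0.0101% lower, and 0 had an unadjusted p under 0.05, which 2790 genes had. By quantile normalization 19 genes were called higher and 5 lower, none of them among the 10, and the all-gene median was -0.0061. Relative to the all-gene median the 10 genes lay between -0.21 (NHX1) and 0.40 (HKT1). NHX1 was lower in both OE-SAUR41 shoot libraries than in either Col-0 library, by 0.54 on the log2 scale (95% interval -1.17 to 0.098, limma adjusted p = 0.396), and SKOR, unlisted in OE-SAUR41 shoots, was lower likewise. HKT1 was higher in both, by 0.08 (95% interval -0.84 to 1.00). Of all genes, 7.26% had both OE-SAUR41 shoot libraries above both Col-0 ones and 32.5% had both below.

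**Figure D3:**
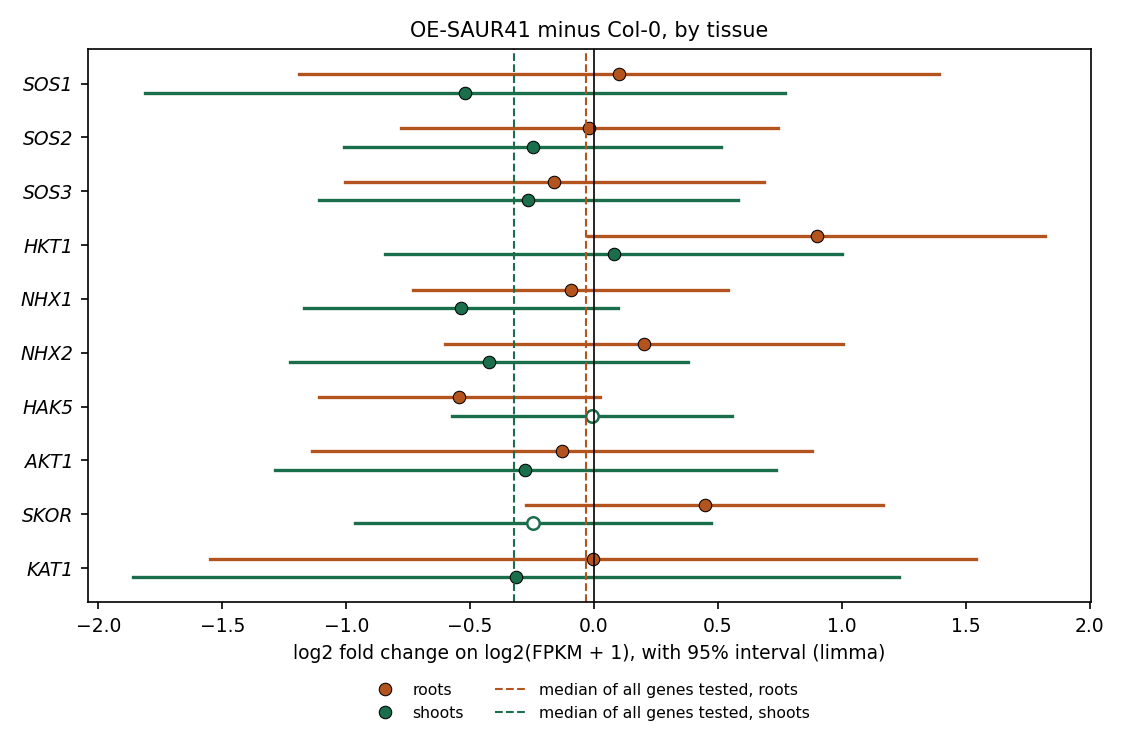
OE-SAUR41 minus Col-0 difference of each gene (horizontal axis, log2 of FPKM + 1) with its 95% interval from limma, in roots (brown) and shoots (green); dashed lines are the medians of all tested genes, -0.03 and -0.32. Every interval includes 0; open circles mark HAK5 and SKOR in shoots, where both OE-SAUR41 libraries were unlisted.

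The Col-0 shoot libraries decided the size of these shoot differences. Of the 10 genes, 8 had the higher Col-0 shoot value in replicate 1 and that value was the highest of the 4 shoot libraries, which is 80% of them against 66.6% of all tested genes. The log2 difference between the Col-0 shoot libraries, replicate 1 minus replicate 2, was 2.49 for KAT1, 1.85 for SOS1 and 1.40 for AKT1, with a median of 0.80 over the 10 genes against 0.50 over all genes. HKT1 and HAK5 were the exceptions at 0.05 and -0.02. Without Col-0 shoot replicate 2, 4 of the 10 genes were called lower in OE-SAUR41 shoots: SOS1 at -1.44 (limma adjusted p = 0.00367), NHX1 at -0.95 (adjusted p = 0.00198), AKT1 at -0.98 (adjusted p = 0.00588) and KAT1 at -1.56 (adjusted p = 0.00108). In that fit 9080 genes were called lower and 784 higher. Without Col-0 shoot replicate 1, 0 of the 10 were called, with KAT1 at 0.93 (adjusted p = 0.0682), AKT1 at 0.42, SOS1 at 0.40, SOS3 at 0.16, SOS2 at 0.14 and NHX1 at -0.12, and 173 genes were called lower and 188 higher. The direction for SOS1, SOS2, SOS3, AKT1 and KAT1 in shoots thus depends on which Col-0 library is used, with SOS2 at -0.64 and SOS3 at -0.69 without replicate 2.

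The gap between the Col-0 shoot libraries grew with the genomic span of a gene. Across 16795 genes with a locus of their own, Spearman's rho between the log2 difference of the pair and the span was 0.61, as a description across genes, which are not independent replicates. In the other replicate pairs rho was 0.31 in OE-SAUR41 roots, -0.36 in Col-0 roots and -0.01 in OE-SAUR41 shoots. The 8 of the 10 genes with a locus of their own are long, from 3165 bp (KAT1) to 6317 bp (SOS1), with a median of 4069.5 bp against 2171 bp for all. The part of span in the shoot differences of the 10 genes was not tested.

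**Figure D4:**
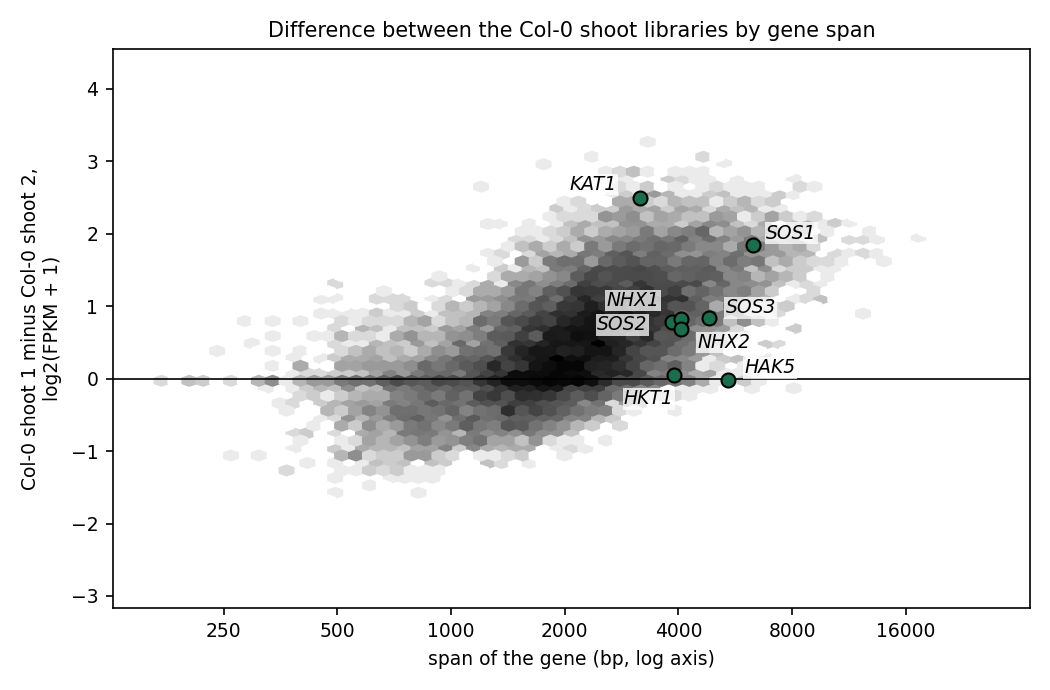
Log2 difference between the Col-0 shoot libraries (replicate 1 minus replicate 2, vertical axis) against the genomic span of the gene in bp (horizontal log axis); the grey scale shows the density of 16795 genes, green points are the 8 genes with a locus of their own. KAT1 and SOS1 lie highest, at 2.49 and 1.85, and HKT1 and HAK5 lie near 0. HAK5 was at or near 0 FPKM in both Col-0 shoot libraries and so cannot show a gap.

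No difference of the genotype effect between organs was called for any of the 10 genes. The difference of the 2 effects, roots minus shoots, was tested in the same limma fit and called for 0 of the 10 and for 0% of all genes. It ran from -0.54 for HAK5 to 0.82 for HKT1, the smallest unadjusted p was 0.154 (SKOR) and the smallest adjusted p 0.807. The median of all genes was 0.30, and relative to it HAK5 was at -0.83 and HKT1 at 0.52. For HAK5, at most 0.0112 FPKM in shoots, the value is almost its root difference alone. At an unadjusted p under 0.05 there were 948 genes, none of the 10. The interval of HKT1 was -0.49 to 2.13 and that of HAK5 -1.34 to 0.27, both of which include 0 and more than 1 log2 unit in 1 direction. Without Col-0 shoot replicate 2 it was called for SOS1 (1.54), NHX1 (0.86), AKT1 (0.85) and KAT1 (1.55), among 6349 genes called higher and 539 lower.

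Relatives of the 10 genes were split between organs much as all genes were. They were taken as 5 lists with 53 entries, of which 51 were listed in the files and 44 passed the filter of at least 1 FPKM in at least 2 libraries. Among the 44, 28 were called higher in OE-SAUR41 roots than shoots and 2 lower, beside 66% and 11.8% of all genes. In Col-0, 25 were called higher and 3 lower, beside 52.7% and 13.2%. These Col-0 counts were 32 and 3 without Col-0 shoot replicate 1, and 21 and 11 without replicate 2. Their median difference was 1.40 in OE-SAUR41 and 0.88 in Col-0, against 1.22 and 0.91 for all genes.

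Of the 5 other NHX antiporters, 4 were called higher in roots in both genotypes. The largest differences in OE-SAUR41 were those of the endosomal NHX6 (2.58, limma adjusted p = 0.00268) and NHX5 (1.38, adjusted p = 0.00382), and NHX5 shares its locus with TAF6B in the files. Of the 12 other potassium transporters of the KUP/HAK/KT family, 5 were called higher in OE-SAUR41 roots and 4 in Col-0 roots, led by KUP6 (2.94, adjusted p = 4.47e-04) and KUP10 (2.57, adjusted p = 0.00148). Of 5 other Shaker and TPK channels tested, 3 were called higher in roots in both genotypes. KC1, the silent subunit that assembles with AKT1, was at 45.4 and 39.4 FPKM in OE-SAUR41 roots, 39.8 and 44.7 FPKM in Col-0 roots, with 0.440 and 0.332 FPKM in OE-SAUR41 shoots, and 3.06 and 0.432 FPKM in Col-0 shoots. Its root minus shoot difference of 4.97 in OE-SAUR41 (adjusted p = 7.63e-05) was close to the 4.57 of AKT1, and GORK, an outward channel of root hairs and guard cells, followed at 2.18 (adjusted p = 0.00108). The phloem and guard cell channels AKT2 and KAT2, named after their values were seen, did not pass the filter, with 8.18 and 2.22 FPKM in Col-0 shoot replicate 1 and at most 0.829 and 0.554 FPKM elsewhere.

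The calcium sensors and kinases around SOS2 and SOS3 held 8 of 11 genes called higher in OE-SAUR41 roots and 1 lower, and 7 higher and 1 lower in Col-0. CIPK8 (3.36, limma adjusted p = 0.00354) and CIPK23, the kinase that activates AKT1 (3.34, adjusted p = 1.82e-04), led in OE-SAUR41. CIPK23 was at 55.1 and 43.6 FPKM in OE-SAUR41 roots, 56.5 and 61.7 FPKM in Col-0 roots, with 4.07 and 3.80 FPKM in OE-SAUR41 shoots, and 8.03 and 3.03 FPKM in Col-0 shoots. The gene called lower was CBL10, the shoot partner of SOS2, named here after its values were seen. CBL10 was at 0.881 and 0.453 FPKM in OE-SAUR41 roots, 2.28 and 1.59 FPKM in Col-0 roots, with 8.49 and 5.69 FPKM in OE-SAUR41 shoots, and 8.18 and 7.12 FPKM in Col-0 shoots. CBL10 was thus high where SOS3 was low, with root minus shoot differences of -2.27 in OE-SAUR41 (adjusted p = 5.59e-04) and -1.57 in Col-0 (adjusted p = 0.00376). Of 11 KEA and CHX antiporters, 8 were called higher and 1 lower in OE-SAUR41 roots, and 7 higher and 2 lower in Col-0. CHX17, a root cation/proton exchanger, led at 3.14 in OE-SAUR41 (adjusted p = 6.32e-05), followed by KEA4 at 2.17 (adjusted p = 0.00131).

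No relative was called between genotypes. In roots 15 of the 44 differences were above 0 and 29 below, and only CBL10 had an unadjusted p under 0.05. Its difference was -0.82 (95% interval -1.54 to -0.095, limma adjusted p = 1). In shoots 4 were above 0 and 40 below, with a median of -0.47 against -0.32 for all genes, and the smallest adjusted p was 0.225, that of CIPK6, which is named for it. 8 of the 44 had an unadjusted p under 0.05 in shoots, beside 14.0% of all genes. These shoot values rest on the Col-0 shoot pair: without replicate 1 the median of the 44 was 0.09 with 1 called higher (CHX16, named for that), and without replicate 2 it was -0.98 with 32 called lower.

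**Figure D5:**
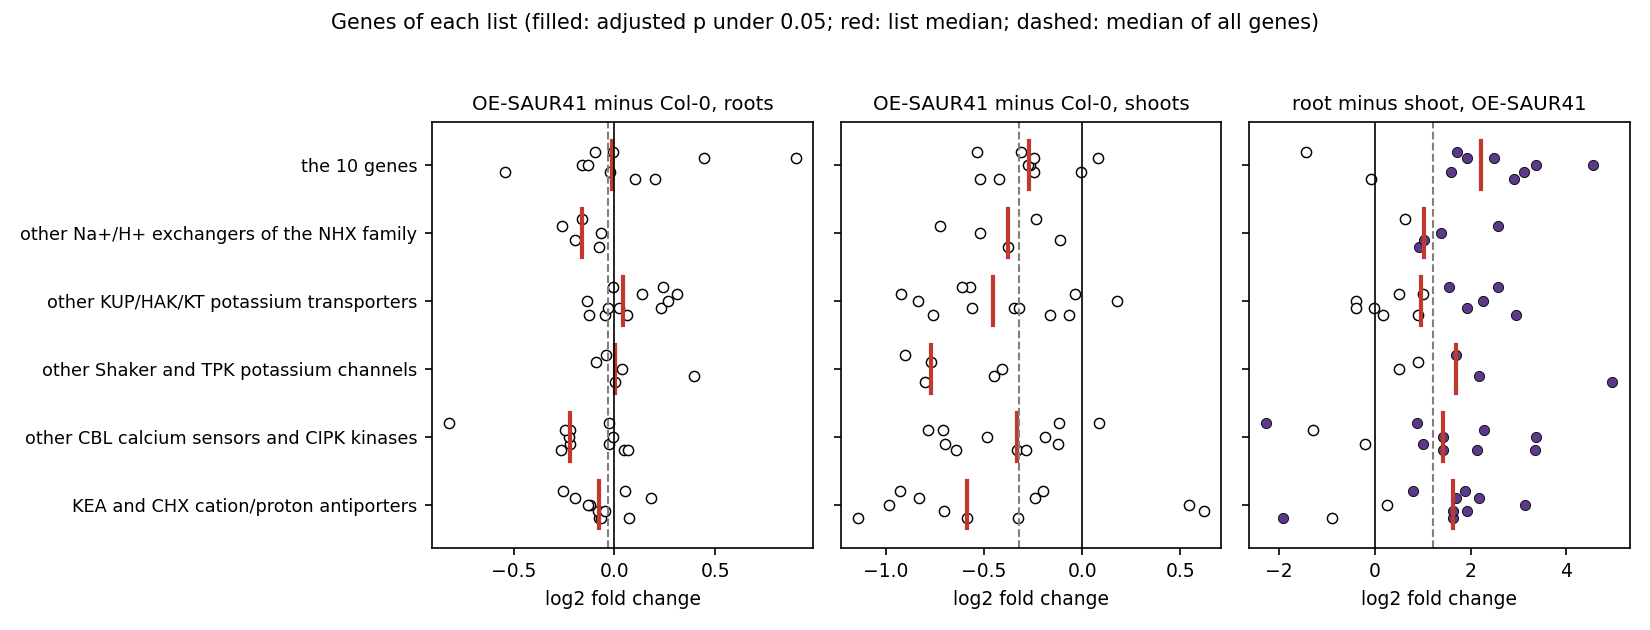
Log2 difference (horizontal axis, log2 of FPKM + 1) of each tested gene of the 10 and of 5 lists of relatives, for OE-SAUR41 minus Col-0 in roots and in shoots and for root minus shoot in OE-SAUR41; filled points were called at an adjusted p under 0.05, red bars are list medians and dashed lines the medians of all genes. No point is filled in the genotype panels, and 8 of the 10 genes and 30 of the 44 relatives are filled in the tissue panel.

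The genes whose pattern was most like each of the 10 were found by Pearson's r of log2(FPKM + 1) over the 8 libraries. With 4 root and 4 shoot libraries, any gene with a large organ difference scores high, so these values are a description and carry no p. SOS1 was matched best by SFR6 (r = 0.9997), SOS2 by AT3G15090 (r = 0.998), SOS3 by TBL28 (r = 0.9996), NHX1 by LIS (r = 0.9997), HAK5 by AT3G15250 (r = 0.9997), AKT1 by AT4G27020 (r = 0.999) and SKOR by AT5G20810 (r = 0.997). Each of these 7 genes had from 3363 to 6696 genes with r above 0.95. The other 3 had rarer patterns. HKT1 had 36 such genes, with BGLU24 (r = 0.994) first: it was at 1.51 and 1.28 FPKM in OE-SAUR41 roots, 1.05 and 0.387 FPKM in Col-0 roots, and at most 0.0311 FPKM in shoots. KAT1 had 155, with WRR4 first (r = 0.999), which was at 2.02 and 2.07 FPKM in OE-SAUR41 shoots and 9.87 and 0.640 FPKM in Col-0 shoots. KAT1 was at 7.11 and 0.447 FPKM in those Col-0 shoot libraries, so this r takes in the gap between them. The part of that gap in the match was not tested. NHX2 had 0, and its best match was AT1G30020 (r = 0.948).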

How the data were processed

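Per the labels' protocols, seedling parts were ground frozen, their total RNA was isolated with TRIzol, and the libraries were read on an Illumina HiSeq. The deposited values are the authors' FPKM, as the file headers state, on the TAIR10 build, which the submitters' processing notes name. Not given in the sources used here are the aligner, the quantifier, the strand setting and how reads matching several genes were treated. The files list values above 0, so an unlisted gene was taken as 0. File starts count from 0 and were raised by 1. Locus tags of 25139 genes matched a RefSeq gene table (assembly TAIR10.1), from which only names were taken. In the files 3635 genes share a locus with another gene and are uncertain. 3 genes were left out as failed estimates, unlisted in 1 library of a group and above 100 FPKM in the other. Depth is unknown, so no counting interval can be given.

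A gene was tested if 2 or more of the 8 libraries had it at 1 FPKM or above, which 19863 genes met. Tests were made on log2(FPKM + 1), which understates the change of low genes. A single limma fit (limma 3.58.1, R 4.3.3; 4 group means, eBayes with trend, 4 residual and 3.53 prior degrees of freedom) gave the contrasts OE-SAUR41 minus Col-0 in each organ, their difference, and root minus shoot in each genotype. Adjusted p-values are Benjamini-Hochberg over all tested genes, and intervals are 95% intervals from limma. The fit was tested on simulated data with the same spread in every library, so the gap between the Col-0 shoot libraries was not covered. Python 3.11.15 with matplotlib 3.10.9, numpy 2.4.6 and pandas 2.3.3 made the tables and plots.

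The 10 genes, the 5 lists of relatives and the marker lists were chosen with earlier results of these data known. All 10 genes are named. Of the lists, genes called between genotypes and, per list, the 2 with the largest called organ difference in OE-SAUR41 are named, and for each of the 10 the gene most alike over the 8 libraries. Alternatives were quantile normalization, pseudocounts of 0.1 and 5, a filter at 5 FPKM or none, removal of a lowess trend on gene span (lowess span 0.3, 3 iterations), a block on the replicate number, fits on only the libraries of a contrast, and each library left out. A library left alone in its group was taken to vary as the other groups do. A crossed replicate block was added after the data were seen. The result of 1 marker list is not reported here.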

Additional observations from a re-analysis of the deposited data

How the results depend on the processing

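For the 10 genes together, 0 were called between genotypes in roots in every alternative run. Some runs tested fewer of them: 7 with the filter at 5 FPKM, 8 with the span trend removed and 9 with the root libraries alone. The filter and the span correction limited every contrast alike. In shoots and for the difference of the 2 effects, the count ran from 0 to 4 over the fits that leave out 1 library, with the 4 reached without Col-0 shoot replicate 2 and 0 in each other fit. Root minus shoot counts ran from 6 to 9 in OE-SAUR41 and in Col-0. Calls over all genes ran from 1 to 9 in roots (1 without alternatives), 1 to 9864 in shoots (4), 0 to 6888 for the difference (0), 11009 to 17240 for OE-SAUR41 organs (15452) and 7845 to 16335 for Col-0 organs (13094). In Col-0 the HKT1 call was also lost with a pseudocount of 5 (adjusted p = 0.0515), without a filter (0.0634) and with the Col-0 libraries alone (0.0977), and the KAT1 call with a pseudocount of 5 (0.0719) and without a filter (0.0823). KAT1 in OE-SAUR41 was called with a pseudocount of 0.1 (0.00946), under quantile normalization (0.00379), with the span trend removed (0.00661) and with the OE-SAUR41 libraries alone (1.04e-04). AKT1 and SKOR, whose loci are shared, had no span correction.

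Log2 differences changed sign under these scalings, where the cause was not tested. HAK5 in shoots (at most 0.0112 FPKM) and KAT1 in roots (at most 0.0316 FPKM) were at or near 0 in every library. Their values below are thus no measure of a change in expression. In roots SOS2 was at 0.020 under quantile normalization and KAT1 at 0.013 with the span trend removed. In shoots quantile normalization gave 0.12 for SOS2, 0.053 for HAK5, 0.19 for AKT1 and 0.21 for KAT1, and removal of the span trend gave 0.14 for SOS1, 0.23 for SOS2, 0.30 for SOS3, 0.074 for NHX2, 0.60 for HAK5 and 0.12 for KAT1. For the difference of the effects, quantile normalization gave -0.097 for SOS2, -0.088 for SOS3, -0.31 for AKT1 and -0.21 for KAT1, removal of the span trend gave -0.082 for SOS1, -0.26 for SOS2, -0.48 for SOS3, -0.064 for NHX1 and -0.10 for KAT1, and a pseudocount of 5 gave -0.047 for SOS3. With 1 library left out, root differences between genotypes ran from -0.15 to 0.35 for SOS1, -0.21 to 0.17 for SOS2, -0.34 to 0.023 for SOS3, -0.040 to 0.45 for NHX2, -0.29 to 0.034 for AKT1 and -0.027 to 0.018 for KAT1. Shoot differences ran from -1.44 to 0.40 for SOS1, -0.64 to 0.14 for SOS2, -0.69 to 0.16 for SOS3, -0.98 to 0.42 for AKT1 and -1.56 to 0.93 for KAT1. The difference of the effects ran from -0.30 to 1.54 for SOS1, -0.16 to 0.62 for SOS2, -0.32 to 0.52 for SOS3, -0.55 to 0.85 for AKT1 and -0.94 to 1.55 for KAT1, and the organ difference of NHX2 in OE-SAUR41 from -0.28 to 0.13.

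With the replicate number as a block, 0, 0, 0, 8 and 9 of the 10 genes were called in roots, in shoots, for the difference, and between organs in OE-SAUR41 and Col-0, the counts without the block. Same-numbered libraries deviated together at r = 0.08 for OE-SAUR41 and Col-0 roots, -0.0049 for OE-SAUR41 and Col-0 shoots, -0.0084 for OE-SAUR41 roots and shoots and -0.22 for Col-0 roots and shoots, so the numbers are not shown to pair the samples; across both organ and genotype r was 0.46 for OE-SAUR41 roots and Col-0 shoots and 0.02 for OE-SAUR41 shoots and Col-0 roots. With the Col-0 shoot numbers crossed, 9 of the 10 were called between Col-0 organs. Depth is unknown, so the precision of values near 0 cannot be given.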

Other observations

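The files name AT5G55470 NHX4 and AT3G06370 NHX3, the reverse of the names in the RefSeq table. By RefSeq name, NHX3 was at 1.37 and 1.12 FPKM in OE-SAUR41 roots, 1.29 and 1.44 FPKM in Col-0 roots, unlisted and at 0.387 FPKM in OE-SAUR41 shoots, and at 0.750 and 0.338 FPKM in Col-0 shoots. NHX4 was at 7.88 and 6.75 FPKM in OE-SAUR41 roots, 7.66 and 9.44 FPKM in Col-0 roots, with 3.99 and 2.31 FPKM in OE-SAUR41 shoots, and 3.97 and 2.90 FPKM in Col-0 shoots.

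CHX20, a guard cell cation exchanger named here after its values were seen, was 1 of the 2 relatives called lower in OE-SAUR41 roots than shoots (-1.93, limma adjusted p = 0.00155). It was at 0.406 and 0.102 FPKM in OE-SAUR41 roots, 0.146 and 0.224 FPKM in Col-0 roots, with 3.24 and 4.28 FPKM in OE-SAUR41 shoots, and 8.56 and 4.31 FPKM in Col-0 shoots.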
